A study of Homo sapiens with 4 samples.

Results

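The SMARCB1 peaks described here are the stretches of the genome that the authors' peak list places in exons: every line whose annotation field reads exon was taken, with no use of a measured value. They number 459 of the 4453 peaks in that list. The list came from chromatin immunoprecipitation with sequencing (ChIP-seq) in SK-Hep1, a human hepatic adenocarcinoma cell line, with an antibody against SMARCB1. A second antibody, against histone H3 acetylated at lysine 27 (H3K27ac), was used on cells that stably carried a short hairpin RNA against SMARCB1 (shSMARCB1, the knockdown) and on cells with a control hairpin (shCon, the control), all selected in puromycin. The labels do not say which hairpin, if any, the cells of the SMARCB1 library carried, and the labelled input library was not analysed here. Each group had 1 library, so no difference between knockdown and control has a replicate check, and shares are given with 95% Wilson intervals that cover the counting of peaks only.

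SMARCB1 belongs to the core of SWI/SNF, a family of complexes that use ATP to slide or evict nucleosomes at promoters and enhancers. H3K27ac marks active promoters and enhancers and falls off along the transcribed body of most genes, although it can spread into the first exons downstream of an active start. Exons are the parts of a gene kept in its mature RNA, and outside the first exon they mostly lie away from promoters.

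The exon label was checked against RefSeq gene records on GRCh38.p14. The reference used here gives the ends of each gene but no exon boundaries, so the label itself was taken from the authors' list, and the host gene was the shortest protein-coding record holding the centre of the peak. Of the 459 centres, 458 lay in a protein-coding record, and the other one lay in the long non-coding RNA gene LINC02875. The 458 peaks fell in 413 protein-coding genes, which was 2.07% of the 19970 protein-coding records, while SMARCB1 peaks of any class reached 15.7% of them. At 14 peaks more than 1 protein-coding record held the centre. In both H3K27ac libraries the ends of the hepatocyte genes ALB and APOA1 carried no peak. The ends of KRT8, KRT18, VIM and FN1 were acetylated in both libraries, those of KRT14 and KRT17 in neither, that of KRT5 in the knockdown only and that of COL1A2 in the control only, and H3K27ac covered 3115 bp (knockdown) and 4344 bp (control) of the SMARCB1 gene with 1 kb around it. The H3K27ac lists hold no measure of SMARCB1 RNA or protein, so the depth of the knockdown was not checked.

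The promoters of 4 host genes are printed first because they show both arrangements that recur below, an exon peak lying over the gene's start and a wide one lying wholly downstream of it. Each runs 5′ to 3′ on the gene's strand from 250 bases before to 50 bases after the RefSeq start (GRCh38.p14), and capitals mark the bases inside the SMARCB1 peak. TMEM158, a membrane protein gene, is at chr3:45226238-45226537 on the minus strand. NANOS1, which encodes an RNA-binding repressor of translation, is at chr10:119029464-119029763 on the plus strand. PERP, which encodes a membrane protein of desmosomes, is at chr6:138107370-138107669 on the minus strand. TUBB, a beta-tubulin gene, is at chr6:30720102-30720401 on the plus strand.
TMEM158: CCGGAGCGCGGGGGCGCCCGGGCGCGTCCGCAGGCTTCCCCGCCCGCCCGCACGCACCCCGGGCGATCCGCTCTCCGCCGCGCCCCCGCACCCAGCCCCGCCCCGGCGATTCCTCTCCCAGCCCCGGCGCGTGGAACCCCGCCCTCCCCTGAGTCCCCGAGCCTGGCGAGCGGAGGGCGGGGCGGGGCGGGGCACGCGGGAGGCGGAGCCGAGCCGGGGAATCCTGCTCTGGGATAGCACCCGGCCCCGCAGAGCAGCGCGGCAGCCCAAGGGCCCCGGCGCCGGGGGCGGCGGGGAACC
NANOS1: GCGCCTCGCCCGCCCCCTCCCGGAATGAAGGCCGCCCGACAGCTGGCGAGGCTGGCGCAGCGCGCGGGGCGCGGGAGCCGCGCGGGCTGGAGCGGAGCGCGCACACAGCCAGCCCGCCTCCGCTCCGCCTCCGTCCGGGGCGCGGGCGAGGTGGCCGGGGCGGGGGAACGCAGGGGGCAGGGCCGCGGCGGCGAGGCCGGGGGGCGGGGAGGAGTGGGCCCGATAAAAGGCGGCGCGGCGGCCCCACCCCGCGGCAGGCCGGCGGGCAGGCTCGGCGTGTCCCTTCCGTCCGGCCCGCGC
PERP: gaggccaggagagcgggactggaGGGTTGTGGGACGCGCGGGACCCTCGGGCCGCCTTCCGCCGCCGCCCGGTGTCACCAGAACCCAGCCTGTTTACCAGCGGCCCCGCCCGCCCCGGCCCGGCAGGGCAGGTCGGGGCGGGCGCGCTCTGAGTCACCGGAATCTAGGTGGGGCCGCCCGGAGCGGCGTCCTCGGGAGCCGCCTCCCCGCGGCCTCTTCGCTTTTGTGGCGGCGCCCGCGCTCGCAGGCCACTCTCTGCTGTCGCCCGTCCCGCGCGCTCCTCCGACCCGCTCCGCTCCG
TUBB: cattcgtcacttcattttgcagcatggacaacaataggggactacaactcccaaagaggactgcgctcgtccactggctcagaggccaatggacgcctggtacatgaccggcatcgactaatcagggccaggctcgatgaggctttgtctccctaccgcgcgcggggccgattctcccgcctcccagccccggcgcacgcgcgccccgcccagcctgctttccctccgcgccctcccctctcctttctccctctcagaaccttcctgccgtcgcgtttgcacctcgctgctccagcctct
All 300 bases of the TMEM158 and NANOS1 windows lay inside their exon peaks, and 277 of the PERP window did. None of the TUBB window did, since the peak began 2296 bases beyond the start. The 4 windows held 46, 51, 43 and 25 CpG dinucleotides in the order printed, with G and C making up 82.7%, 83.3%, 77.0% and 63.3% of the bases.

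Promoters of the genes hosting exon peaks were rich in CpG. The ratio of observed to expected CpG exceeded 0.6 in 89.0% (82.9 to 93.1%) of the 146 host promoters whose start lay inside an exon peak or within 1 kb of one. It did so in 76.2% (69.3 to 81.9%) of the 172 host promoters farther away and in 65.7% of all 15811 promoters in the table. The letters TGANTCA, the core that AP-1 family factors bind, read the same on both strands; PERP's window held 1 such match. They occurred in 8.22% (4.76 to 13.8%) of the nearer host promoters and 6.98% (4.04 to 11.8%) of the farther ones, against 5.76% of all promoters, so the intervals of both sets included the level of all promoters.

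The exon peaks split about evenly between the start region of genes and the gene body. A RefSeq start was at hand for the hosts of 351 peaks. Only 1 start per gene was used, here and below, and other starts of a gene were not considered. The start lay inside the peak for 69 of these (19.7%, 15.8 to 24.1%), and 147 (41.9%, 36.8 to 47.1%) lay over the start or within 1 kb of it. Another 34 (9.69%) lay within 1 kb of the 3′ end but not of the start, and 170 (48.4%, 43.3 to 53.6%) lay farther than 1 kb from both. More than 10 kb separated 127 peaks (36.2%) from the start. Such counts can include peaks at another start of the gene. The GALNT11 peak, for example, lay 48771 bases from the start used but over an end of the gene record. Counting each gene once, the median record of the 414 hosts was 19806 bases long, against 53411 bases for the hosts of intron peaks and 33929 bases for those of all SMARCB1 peaks. Exon peaks lay on 23 chromosomes, with 58 on chromosome 1 and 57 on chromosome 17.

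Somewhat over 50% of the exon peaks overlapped H3K27ac by at least 1 base. In the knockdown 263 of 459 did (57.3%, 52.7 to 61.7%), against 69.0% of all SMARCB1 peaks, and in the control 269 did (58.6%, 54.0 to 63.0%), against 70.6% of all SMARCB1 peaks. Both lists covered 254 (55.3%, 50.8 to 59.8%; 67.9% of all) and neither covered 181 (39.4%, 35.1 to 44.0%; 28.3% of all). Exon peaks therefore resembled intron peaks in this respect, of which 59.3% and 61.9% overlapped H3K27ac in the knockdown and the control. They stood well below peaks classed as promoter, at 96.2% and 96.7%, and above those classed as 3′ untranslated region, at 21.6% and 22.2%.

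Distance from the start separated the acetylated exon peaks from the others. Of the 69 peaks over a start, 98.6% were acetylated in the knockdown and 100% in the control. The 78 peaks with a gap of 1 to 1000 bases gave 94.9% and 96.2%. Between these and 2500 bases, 60.0% (42.3 to 75.4%) and 70.0% (52.1 to 83.3%) of 30 peaks were acetylated. Beyond 2500 bases the share was 22.4% (16.9 to 29.2%) in the knockdown and 23.0% (17.4 to 29.8%) in the control, over 174 peaks. Intron peaks at the same distance had higher shares, 43.4% (39.6 to 47.3%) and 46.2% (42.4 to 50.1%) of 640 peaks, and these intervals did not meet those of the exon peaks in either library. The totals of both classes did not show this contrast, since their intervals overlapped in each library. Exon and intron hosts also differed in length, with medians of 33680 and 88363 bases at these distances, and the part of gene length in the contrast was not tested.

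**Figure D1:**
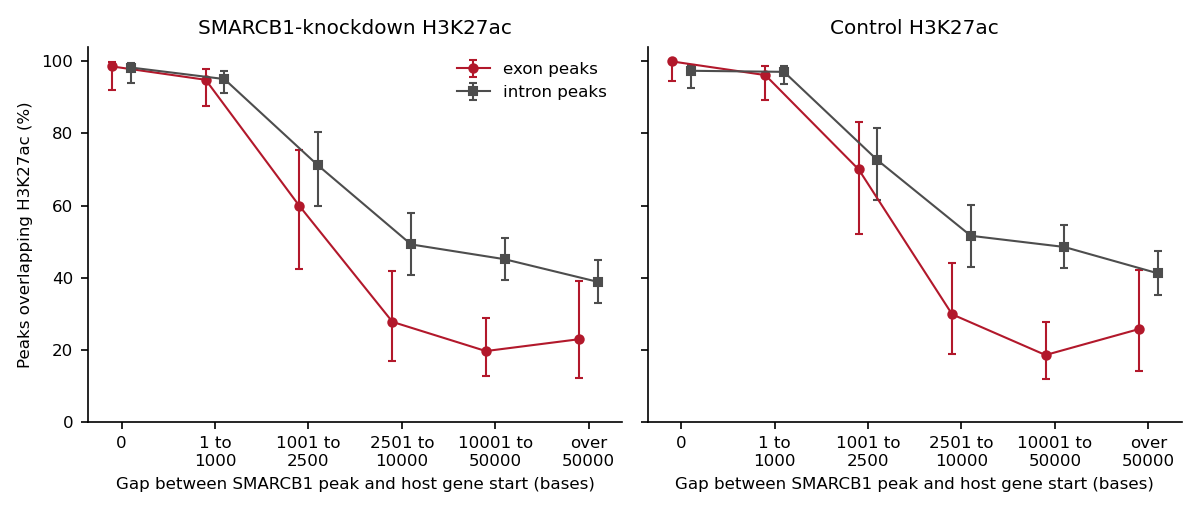
Share of SMARCB1 peaks overlapping H3K27ac (y axis, percent) by the gap in bases between the peak and the start of its host gene (x axis), for exon peaks (red circles) and intron peaks (grey squares), in the knockdown (left) and the control (right). Bars are 95% Wilson intervals. Both classes stay above 94% up to 1000 bases. Beyond 2500 bases the exon peaks lie lower at each distance plotted. There the bars of both classes overlap at the nearest and the farthest distance and are apart only between these.

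The genes under unacetylated exon peaks were mostly acetylated at their own starts. A start is called acetylated here and below when an H3K27ac peak lay over it or within 1 kb of it. Of the 138 unacetylated exon peaks with a known host start, 119 (86.2%, 79.5 to 91.0%) had that start acetylated in the knockdown. In the control 119 did. The background was 62.4% of all protein-coding starts in the knockdown and 63.7% in the control. Over all SMARCB1 peaks with a known host start, 86.5% in the knockdown and 87.4% in the control had that start acetylated, so the unacetylated exon peaks were close to the list as a whole. Over all 319 exon-peak hosts with a known start, 289 starts (90.6%, 86.9 to 93.3%) were acetylated in the knockdown and 290 (90.9%, 87.2 to 93.6%) in the control. Unacetylated intron peaks gave 76.6% (72.0 to 80.7%) of 364 in the knockdown and 77.5% (72.9 to 81.5%) in the control. Within 1 kb, 152 of the 181 unacetylated exon peaks had no H3K27ac in either library, and within 5 kb 102 had none. Beside them, 440 of the 487 unacetylated intron peaks had none within 1 kb, as did 1123 of the 1259 unacetylated peaks of the whole list.

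Each SMARCB1 peak carries 1 number from the authors, whose unit the file does not give and which is used here only to rank peaks within the list. Over the exon peaks it ran between 7.92 and 328.5 with a median of 13.2, against 11.6 for all SMARCB1 peaks, 13.2 for promoter peaks and 10.6 for intron peaks. The 3 members at the median were on CCN5, a secreted matricellular protein gene, CELSR1, a planar polarity cadherin gene, and RPL36A, a ribosomal protein gene, and all were acetylated in both libraries. The median width was 500 bases, also the smallest among exon peaks, but 41 exon peaks (8.93%, 6.65 to 11.9%) were wider than 1000 bases, against 4.92% of all SMARCB1 peaks and 4.13% of intron peaks. Of the 33 SMARCB1 peaks wider than 2000 bases, 11 were exon peaks.

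The 46 exon peaks with the highest values were wider than the rest and lay on shorter genes. Their median width was 1396 bases, and 33 of them were wider than 1000 bases, against none of the 229 peaks in the lower 50%. Counted per peak, the median host length was 6346 bases, against 22384 in the next 40% and 27426 in the lower 50%. Only 9 of the 35 with a known start (25.7%, 14.2 to 42.1%) lay within 1 kb of it, against 56.3% (47.9 to 64.4%) of the next 40% by value and 34.3% (27.7 to 41.4%) of the lower 50%. In the knockdown 23 (50.0%, 36.1 to 63.9%) and in the control 21 (45.7%, 32.2 to 59.8%) were acetylated, against 73.9% (67.1 to 79.7%) of the next 40% in each library. The lower 50% gave 45.4% (39.1 to 51.9%) in the knockdown and 48.9% (42.5 to 55.3%) in the control. In acetylation and in distance from the start, the highest peaks thus had intervals that overlapped those of the lower 50%, and the next 40% stood above both.

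**Figure D2:**
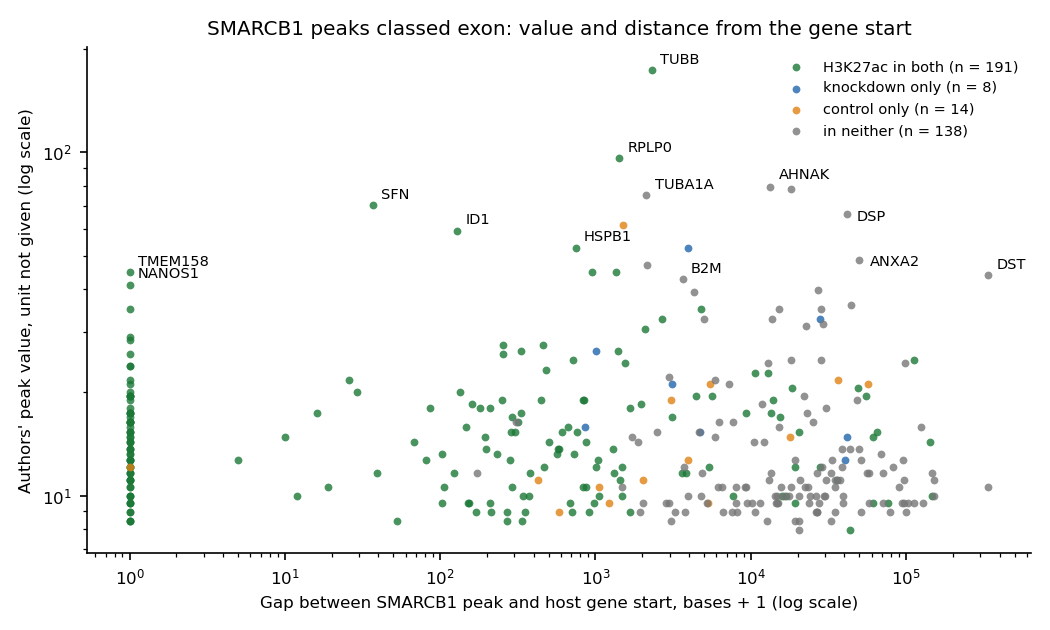
Authors' value of each exon peak (y axis, log scale, unit not given) against its gap to the host gene's start (x axis, bases plus 1, log scale), for the 351 peaks with a known start, coloured by overlap with H3K27ac. Peaks at or near a start are almost all green (acetylated in both), while the high values of AHNAK, DSP, TUBA1A and ANXA2 lie over 1000 bases downstream and are grey (in neither). The highest points, TUBB and RPLP0, also lie over 1000 bases downstream but are green.

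The gene lists used from here on were chosen with earlier results of these data known, so their shares are only descriptive. Genes of the cytoskeleton held the highest exon peaks. The list of 44 such genes contributed 14 hosts (31.8%, 20.0 to 46.6%) and 22 exon peaks with a median value of 23.2, of which 12 were wider than 1000 bases and 18 overlapped H3K27ac in neither library. ACTB, the gene for cytoplasmic beta-actin, had the highest value of all exon peaks, 328.5, at chr7:5526917-5530130. That peak spanned 3214 bases and covered 86.4% of the gene record, and 1651 of its bases were acetylated in the knockdown and 2507 in the control. TUBB had a value of 173.8 at chr6:30722648-30725864, again acetylated in both libraries, over 1706 bases in the knockdown and 2140 in the control. The alpha-tubulin genes differed from these: TUBA1A (75.0, chr12:49184846-49186958), TUBA1B (47.0) and TUBA1C (35.9) carried wide peaks toward their 3′ ends that no H3K27ac peak touched. The TUBA1A and TUBA1B starts, 2122 and 2148 bases away, were acetylated in both libraries, and the TUBA1C start used, 44136 bases away, in neither. The TUBA1C record nevertheless carried 8792 acetylated bases in the knockdown and 8815 in the control. The stretch reaching 5 kb to either side of its exon peak held 2465 (knockdown) and 2506 (control) acetylated bases. Other starts of TUBA1C were not considered. Unacetylated exon peaks of lower value lay on FLNA, VCL and FLNC, which encode actin-linked filamins and vinculin, at 19.5, 11.1 and 9.51.

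AHNAK, which encodes a giant scaffold protein beneath the plasma membrane, had 5 SMARCB1 peaks, all of them exon peaks. Their values were 79.2, 78.2, 31.2, 16.4 and 39.6 along the direction of transcription, and their widths were 3516, 3827, 1617, 779 and 1857 bases. They lay 13.361 to 28.801 kb beyond the start, in one block of the gene. The highest was at chr11:62528950-62532465. No H3K27ac peak of either library touched any of the 5, although the start was acetylated for several kilobases in both. The widest of all exon peaks, 3827 bases, was in this block.

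Keratin and epithelial adhesion genes gave a further set. Among 24 keratin genes 4 were hosts (16.7%, 6.68 to 35.9%), with 8 exon peaks of which 6 were unacetylated in both libraries. KRT14, a basal epithelial keratin, carried the exon peak with the second highest value, 204.4 over 3182 bases at chr17:41582195-41585376, and another of 60.2. The gene record and the 1 kb around it held 0 bases of H3K27ac in both libraries, so KRT14 had a high SMARCB1 value with no acetylation called anywhere on the gene. KRT6A (40.7) and KRT16 (16.9), keratins of activated epidermis, also had no H3K27ac in or within 1 kb of their exon peaks in either library. KRT7, a simple epithelial keratin, was mixed, with values of 21.1 and 12.7 at its exon peaks acetylated in both libraries and 20.1 and 26.4 at those acetylated in neither. Basal keratin genes without exon peaks differed between the libraries, since KRT5 had H3K27ac over 3695 bp in the knockdown and over none in the control.

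A list of 26 epithelial adhesion and keratinocyte genes, drawn up after the peak values had been seen and therefore only descriptive, held 9 hosts and 15 exon peaks, 10 of them acetylated in neither library. DSP, which encodes desmoplakin, the protein that ties keratin filaments to desmosomes, had 5 of these. The DSP peak at the start had a value of 18.0 and was acetylated in both libraries, while the other 4, at 30.061 to 43.552 kb downstream, had values of 10.0, 12.7, 11.1 and 66.0 and were acetylated in neither. The last of them was at chr6:7583035-7585223. JUP, which encodes plakoglobin, had 2 unacetylated exon peaks at 17.4 and 12.1. SFN, which encodes the 14-3-3 sigma protein, differed: its peak of 70.2 at chr1:26863185-26864573 covered 97.2% of a short gene and was acetylated over all 1389 bases in both libraries. PERP, whose promoter is printed above, had 29.0 over its start, with 802 acetylated bases in each library. Among 36 extracellular matrix genes 5 were hosts (13.9%, 6.08 to 28.7%) and 9 exon peaks, 6 of them acetylated in neither library. Among these hosts were COL17A1, a hemidesmosome collagen gene, at 10.6, and HSPG2, the perlecan gene, at 9.51, with both peaks acetylated in neither.

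Genes for ribosomal proteins, glycolysis and iron storage were further groups. Of 80 cytosolic ribosomal protein genes 17 hosted an exon peak (21.2%, 13.7 to 31.4%), while 60 (75.0%) had a SMARCB1 peak of some class, so most ribosomal protein genes were reached outside exons. Their 18 exon peaks included 9 acetylated in both libraries, 1 in the knockdown only, 2 in the control only and 6 in neither. RPLP0, a protein of the ribosomal stalk, was highest at 96.1 (chr12:120198285-120199686), with 901 acetylated bases in the knockdown and 661 in the control. In glycolysis 7 of 19 genes were hosts (36.8%, 19.1 to 59.0%), with 9 exon peaks of which 6 were acetylated in neither library. TPI1, the triosephosphate isomerase gene, had 44.9 and was acetylated in both, whereas PKM, the muscle-type pyruvate kinase gene, had 3 peaks at 18.0, 24.8 and 18.5 that were acetylated in neither. FTH1, the ferritin heavy chain gene, had 71.3 at chr11:61966850-61967914 and was acetylated over all 1065 bases in both.

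The 9 lists of structural and housekeeping genes (cytosolic ribosomal proteins, translation factors, cytoskeleton, glycolysis, keratins, extracellular matrix, chaperones, the iron storage, metallothionein and ubiquitin group, and nuclear RNA-binding proteins) held 301 genes. A SMARCB1 peak of any class lay on 166 of these (55.1%), against 15.7% of all protein-coding genes. In each of the 9 lists that share was above 15.7%, between 33.3% and 75.0%. An exon peak lay on 59 (19.6%), against 2.07% of all protein-coding genes. Because the lists were chosen with earlier results of these data known, these shares are descriptive and no test was made of them. These 59 genes supplied 78 of the 459 exon peaks (17.0%, 13.8 to 20.7%). Of the 46 exon peaks with the highest values they held 26 (56.5%, 42.2 to 69.8%), against 22 of the lower 229 (9.61%, 6.43 to 14.1%). Among the 78, 47 were acetylated in neither library, 27 in the knockdown and 28 in the control. Among the 381 other exon peaks, 134 were acetylated in neither, 236 in the knockdown and 241 in the control. The listed peaks were also farther from starts, with 9 of 56 within 1 kb against 138 of 295.

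Several single lists gave few hosts, with shares on both sides of the 2.07% of all protein-coding genes. Among them, translation factors, chaperones and nuclear RNA-binding proteins also belong to the structural and housekeeping lists above. Zinc finger genes lay below it and supplied 3 hosts of 559 (0.537%, 0.183 to 1.57%), namely ZNF318, ZNF292 and ZNF8, each with its peak over the start or within 1 kb and acetylated in both libraries. The 39 HOX genes supplied none (interval up to 8.97%), and the 53 clustered protocadherin genes supplied none (up to 6.76%), although 22 of these had a SMARCB1 peak of another class. The 28 SWI/SNF subunit genes supplied 1 (3.57%, 0.633 to 17.7%), ARID1A, which encodes a subunit of the canonical BAF form of the complex, with 9.51 and H3K27ac over the whole peak in both libraries. Translation factors supplied 2 of 39 (5.13%, 1.42 to 16.9%) and replication-dependent histones 1 of 69 (1.45%, 0.256 to 7.76%). The intervals of the HOX, protocadherin, SWI/SNF, translation factor and histone lists included the level of all protein-coding genes. Above that level were chaperones with 3 of 24 (12.5%, 4.34 to 31.0%), nuclear RNA-binding proteins with 3 of 27 (11.1%, 3.85 to 28.1%) and immediate early genes with 2 of 20 (10.0%, 2.79 to 30.1%).

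**Figure D3:**
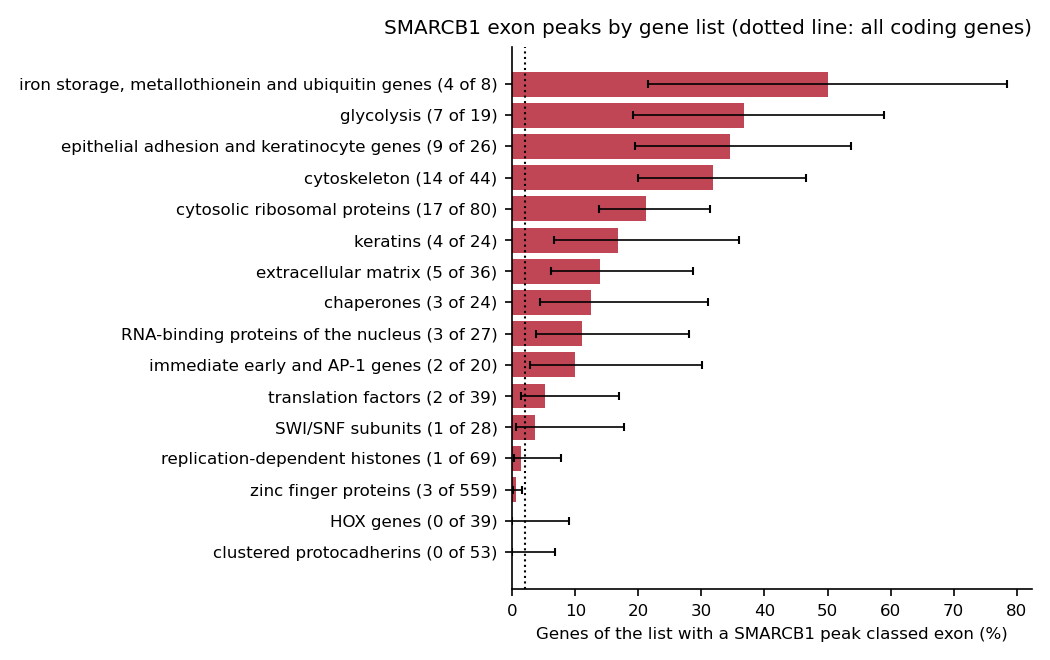
Share of each gene list with an exon peak (x axis, percent of the list's genes), with 95% Wilson intervals as bars; counts stand beside each list's name and the dotted line marks the 2.07% of all protein-coding genes. The iron storage, metallothionein and ubiquitin group reaches 50.0% with only 8 genes, and glycolysis 36.8%, while HOX genes and clustered protocadherins are at 0.

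Many of the genes at the top of this ranking have near-identical relatives or processed copies in the genome. These include actin, tubulin, keratin, ribosomal protein, ubiquitin, ferritin and ANXA2 genes. No source used here says how reads matching several places were treated, so the positions and values of peaks on these genes are uncertain.

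Genes with an exon peak often had further SMARCB1 peaks. Of the 413 hosts 122 (29.5%, 25.3 to 34.1%) carried 2 or more SMARCB1 peaks of any class and 41 (9.93%) carried 3 or more. The background was 14.1% of all protein-coding genes with a SMARCB1 peak, and among those without an exon peak 320 of 2725 (11.7%, 10.6 to 13.0%) had 2 or more. A gene with more peaks has more chances to hold one in an exon, so the choice of hosts itself favours such genes and no test was made. The same order was seen within each class of gene length, with 19.7% of hosts against 9.31% of the others under 5 kb, 23.7% against 9.45% at 5 to 20 kb, 35.2% against 9.56% at 20 to 100 kb, and 42.2% against 18.2% over 100 kb. Exon peaks alone were seldom repeated: 389 genes had 1, 15 had 2 and 9 had 3 or more. The 122 genes with several peaks held 329, of which 167 were exon, 72 intron, 40 3′ untranslated region and 36 promoter peaks, and only 34 of the genes had a peak classed as promoter.

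The genes with the most SMARCB1 peaks showed how exon peaks sat among the others. MYH9, the non-muscle myosin heavy chain gene, had 9, of which 3 were exon peaks, and 1 of the 9, in an intron, was acetylated. C3, the complement component gene, also had 9, with 4 exon peaks of 16.9, 13.7, 15.3 and 12.1, and neither library had any H3K27ac in the gene record. ANXA2, which encodes a membrane-binding annexin, had 7 with 6 exon peaks, whose values in the direction of transcription were 16.9, 21.7, 12.7, 14.8, 19.0 and 48.6. The first of these was acetylated in both libraries, the second in the control only, the next pair in the knockdown only, and the last pair in neither. Among MYH9, C3, KRT7, DSP, PKM, PLEC and ANXA2, ANXA2 alone had exon peaks acetylated in one library and not in the other. KRT7 had 7 SMARCB1 peaks, and DSP, PKM and PLEC, the plectin gene, had 6 each.

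**Figure D4:**
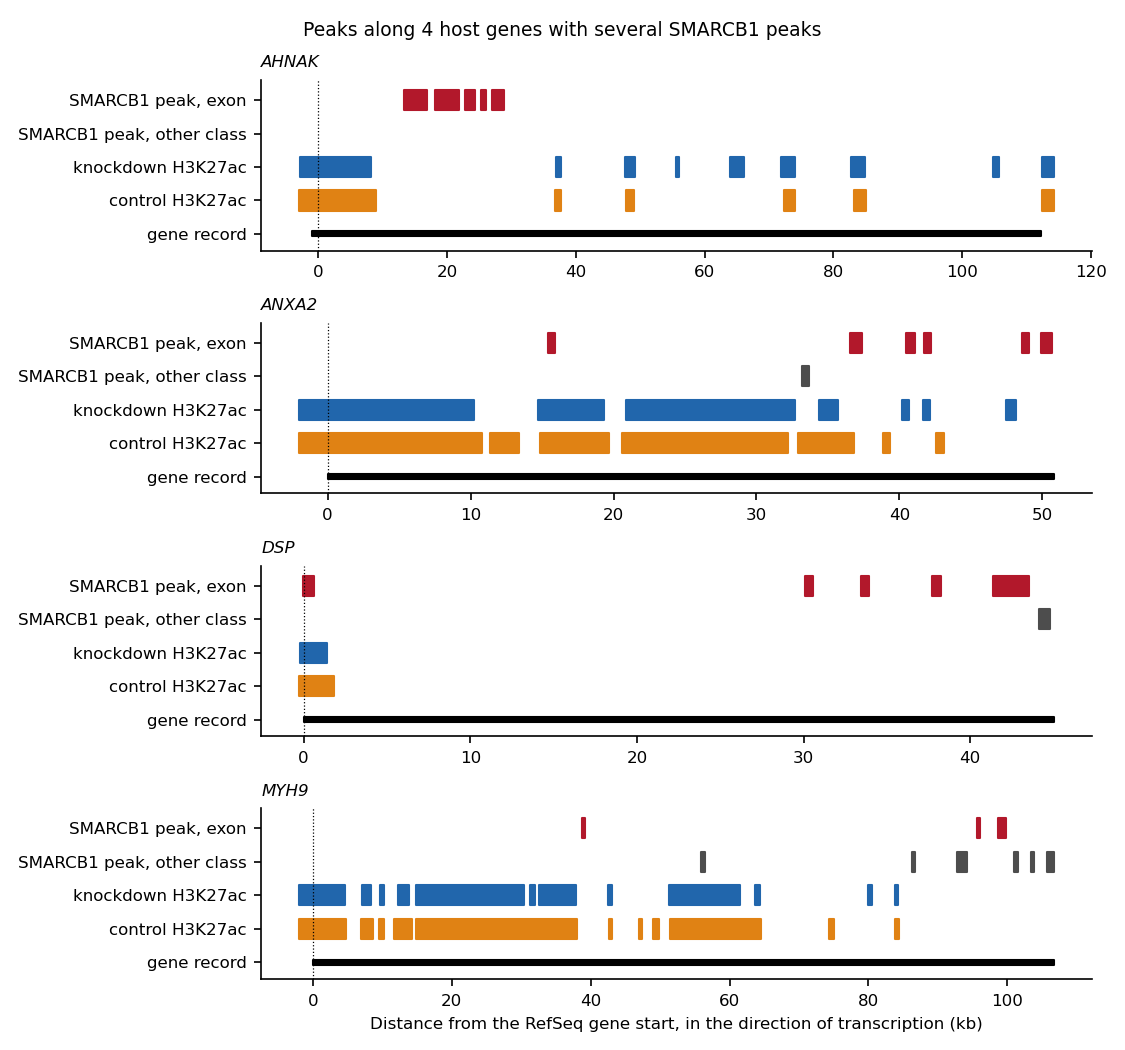
Peaks along AHNAK, ANXA2, DSP and MYH9, drawn as bars against distance from the RefSeq gene start in kb (x axis), with rows for exon peaks, SMARCB1 peaks of other classes, knockdown H3K27ac, control H3K27ac and the gene record. On AHNAK and DSP the exon peaks beyond the start lie where neither library has an H3K27ac bar, and on ANXA2 small bars near 40 kb differ between the libraries.

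SMARCB1 peaks spanned most of the gene body in few of the hosts. SMARCB1 peaks covered a median of 4.22% of the host record, 25% or more of it in 50 hosts (12.1%, 9.30 to 15.6%) and 50% or more in 15 (3.63%). Over all protein-coding genes with a SMARCB1 peak the median was 1.30%, with 4.24% of genes at 25% or more and 1.40% at 50% or more. Among records of at least 2 kb high shares were those of ACTB (86.4%), KRT14 (83.7%), TUBA1A (71.9%), FTH1 (66.1%), S100A2 (58.2%) and TUBB (54.7%). Acetylation over these records varied. It covered 60.5% of ACTB in the knockdown and 79.5% in the control, and 70.2% and 78.8% of TUBB. On S100A2, a calcium-binding protein gene, it covered 55.8% in the knockdown and 42.2% in the control, and on KRT14 0% in both. Among records under 2 kb, SFN reached 97.2% and ID1, which encodes an inhibitor of DNA binding, 89.5%. Several of these genes are known for abundant RNA in many cell types. RNA was not measured in the data analysed here, so whether the covered gene bodies were highly expressed in these cells was not tested.

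Few exon peaks overlapped H3K27ac in 1 library and not in the other. In the knockdown only, 9 exon peaks (1.96%, 1.03 to 3.68%) overlapped H3K27ac, against 1.15% of all SMARCB1 peaks. In the control only, 15 did (3.27%, 1.99 to 5.32%), against 2.72% of all SMARCB1 peaks. Both intervals included the level of all SMARCB1 peaks. The knockdown H3K27ac list rested on 10203310 tags and 34076 peaks and the control list on 13235203 tags and 35310 peaks, per the file headers, so a difference in depth and an effect of the knockdown cannot be told apart.

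The exon peaks acetylated in the knockdown only were led by S100A2, at 52.8 (chr1:153561260-153561884), with 581 acetylated bases in the knockdown and 0 in the control. RPL7, a ribosomal protein gene, followed at 39.1, SLC2A1, the GLUT1 glucose transporter gene, at 32.7, UBB, a polyubiquitin gene, at 26.4, and OAZ1, the gene of an inhibitor of polyamine synthesis, at 21.1. The others were NPAS1 at 15.8, FLII at 15.3 and ANXA2 at 14.8 and 12.7. Except for NPAS1 and RPL7, the starts of all these genes were acetylated in both libraries. NPAS1 was acetylated at its start in the knockdown and not in the control, and no start was at hand for RPL7. Around UBB, within 1 kb of the peak, knockdown H3K27ac covered 2081 bp and control H3K27ac 734 bp, and around OAZ1 they covered 2794 bp and 1589 bp.

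RPL29, a ribosomal protein gene, led the peaks acetylated in the control only, at 61.3 (chr3:51993641-51994393), with 0 acetylated bases in the knockdown and 181 in the control. Behind it came ANXA2 at 21.7, PLAU, the urokinase gene, at 21.1, HSP90AA1, a cytosolic chaperone gene, at 21.1, RPS24 at 19.0 and TUBB6 at 14.8. Within 1 kb the largest difference of this direction was at CLIC1, a chloride intracellular channel gene, where knockdown H3K27ac covered 929 bp and control H3K27ac 2627 bp. At PLAU the lengths were 0 bp (knockdown) and 1305 bp (control). SGCA, the alpha-sarcoglycan gene, had 230 bp (knockdown) and 1571 bp (control). RPL31 had 1337 bp (knockdown) and 2782 bp (control), with its peak acetylated in both.

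Counted as covered length within 1 kb of the peak, H3K27ac was shorter in the knockdown at 195 exon peaks (42.5%, 38.0 to 47.0%), against 46.9% of all SMARCB1 peaks. It was longer in the knockdown at 65 (14.2%, 11.3 to 17.6%), against 16.0% of all SMARCB1 peaks, equal at 47 and absent from both at 152. The summed length was 533 kb in the knockdown and 579 kb in the control, a ratio of 0.920, beside 0.928 over all SMARCB1 peaks. The exon peaks followed the whole list here: their share of shorter windows lay just below the background and their ratio was close to it. The widths of H3K27ac peaks depend on depth and fragment length, which the headers put at 158 bases in the knockdown and 190 in the control, and their part in the shorter windows was not tested.

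**Figure D5:**
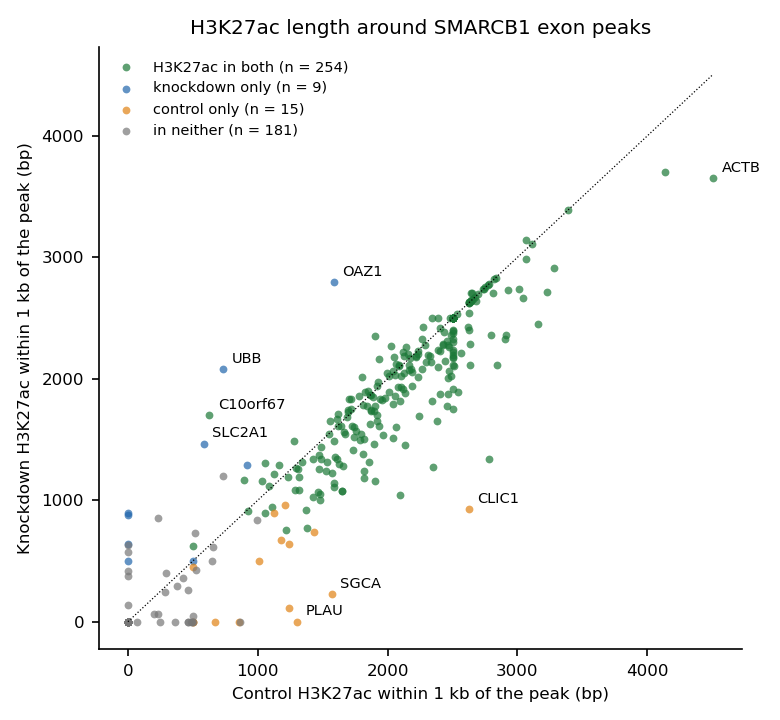
H3K27ac length within 1 kb of each exon peak in the knockdown (y axis, bp) against the control (x axis, bp), coloured by overlap of the peak itself; the dotted line marks equal lengths. Most points lie close to or below the line, with UBB, OAZ1, SLC2A1 and C10orf67 above it and CLIC1, SGCA and PLAU below it.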

How the data were processed

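The deposited data were peak lists of 1 library each for SMARCB1, knockdown H3K27ac and control H3K27ac. Bowtie2, HOMER and the build hg38 are named, without versions or settings, per the submitters' processing notes. The deposited per-peak number in the SMARCB1 list is the authors' own value, of unstated unit. H3K27ac peaks had to exceed input and the local region by 4 fold, with a peak size of 500 bases, per the file headers. No depth for the SMARCB1 library is given in the sources used.

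Positions were converted to 1-based coordinates. From each H3K27ac list 3 peaks off the autosomes and X were left out. Overlap meant at least 1 shared base. The list names no gene, so the host gene was the shortest protein-coding RefSeq record (GRCh38.p14) at the peak's centre, in place of a name in the file as first planned. Starts and promoter sequences came from RefSeq promoter windows of 300 bases, 1 per gene, which matched 351 of the 459 peaks. Wilson intervals, medians and sums were computed with Python 3.11.15, NumPy 2.4.6, pandas 2.3.3 and SciPy 1.17.1, and overlaps were checked with bedtools 2.31.1 and tested on simulated data. No test between conditions was made, with 1 library in each. Genes are named by fixed rules: the 12 highest peaks, the 8 hosts with most peaks, the 8 with the largest covered share, the peaks changing state or length most (6 of each kind) and up to 4 hosts per list. Lesser peaks of the same genes and of related genes, and the promoters printed, were chosen after their values were seen. The members and the gene lists were chosen with earlier results of these data known. A few genes that these rules name are not reported here.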

Additional observations from a re-analysis of the deposited data

How the results depend on the processing

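Of 37 recomputed values, 26 stayed within the interval or the 1.5-fold range of the reported one. Counting only exon peaks farther than 1 kb from both gene ends gave acetylated shares of 31.1% in the knockdown and 32.0% in the control, with 5 peaks acetylated in the knockdown only and 7 in the control only. Without the highest 10% of values the median value was 12.1. The share within reach of a gene end was 43.4% at 500 bases and 63.4% at 2500 bases. With exon peaks alone, 24 hosts had 2 or more peaks and the median covered share was 3.20%. H3K27ac was shorter in the knockdown at 7.63% of exon peaks over the peak alone and at 59.3% over 5 kb on each side. The causes of these differences were not tested. No paired analysis was possible because each group had 1 library. The unchecked exon label, the unstated SMARCB1 depth and the single libraries limit what the peak lists can show, and RNA was not analysed here.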

Other observations

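Beyond the genes already described, unacetylated exon peaks lay on genes outside the gene lists, some with high values and some below the exon median of 13.2. NKX6-2, a homeobox transcription factor gene of the nervous system, had 71.3 over 1410 bases at chr10:132784615-132786024, with no H3K27ac within 1 kb in either library. DST, which encodes the cytoskeletal linker dystonin, had 43.8 over 2110 bases and 10.6, both unacetylated in the knockdown and the control. ATP2B4, a plasma membrane calcium pump gene, had 4 exon peaks between 8.98 and 12.1, all unacetylated in both libraries, with its start acetylated in both. ID1 went the other way, with 59.2 over 1325 bases that were fully acetylated in both libraries. NKX6-2 came by the rule for the highest peaks, and DST, ATP2B4 and ID1 were chosen after their values were seen.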
